A study of Rattus norvegicus with 164 samples.

Results

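The imprinted genes described here were followed in RNA of the rat prelimbic cortex, a medial prefrontal region, and are 10 in number: Meg3, Peg3, Snrpn, Ndn, Peg10, Dlk1, Grb10, Nnat, Plagl1 and Mest. They were chosen by symbol as known imprinted genes, out of a table of 38354 genes in which all 10 had a row, and all 10 were among the 15150 genes whose mean level reached 1, which is the set used for shares of all genes below. A level is log2(CPM + 1), where CPM is the count of a gene after scaling each library to a sum of 1000000. The measurement was polyA RNA sequencing of outbred heterogeneous stock rats, which descend from a cross of inbred strains, and 130 libraries had values. The animals' identifiers divide them into 68 libraries with a decimal number (the decimal series), 11 libraries with a code beginning with E21DCD that was reassigned, and 51 other libraries with such a code (the E21DCD series). The labels give all of them as prelimbic cortex of laboratory rats, and give no treatment, age, sex or batch. Each library has an identifier of its own, taken here as 1 rat each, and a p-value measures the spread between these libraries, dissection and handling included.

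An imprinted gene is transcribed mainly from the copy inherited from one parent, because the parental copies carry different DNA methylation at a control region. Most of what is known of these genes comes from mouse and human, and many of them are strongly expressed in brain. Dlk1 and Meg3 lie in one domain, where Dlk1 is read from the paternal copy and the noncoding RNA Meg3 from the maternal copy. Peg3, Peg10, Mest, Plagl1, Snrpn, Ndn and Nnat are paternally expressed, and Grb10 is unusual in being paternally expressed in neurons and maternally expressed in most other tissues of the mouse. The values used here sum both copies and say nothing of which one was read.

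Not all libraries looked alike, and 2 sets of them stood apart. Of the 130 libraries, 11, all of the decimal series, had Drd2, the D2 dopamine receptor of striatal projection neurons, at 7.25 to 7.90, against 1.94 to 4.65 in the other 119. The 11 are called striatal-like here and the 119 cortical. All 10 of 10 striatal neuron markers, Drd2 included, were higher in every one of the 11 striatal-like libraries than in any cortical library. The summed level of those markers was 12.47 to 12.99 in striatal-like libraries and 7.88 to 9.90 in cortical ones, and 7 of 10 glutamatergic markers were lower in every striatal-like library. The list of layer 5 and 6 neuron markers went the other way from the glutamatergic list. Of its 9 genes, 4 were higher in every striatal-like library and 0 lower. Its summed level was 9.63 to 10.15 in striatal-like and 8.82 to 9.72 in cortical libraries. The interneuron list was mixed, with 3 of 10 genes higher and 2 lower in every striatal-like library. A marker can be read in several cell types, so neither list is taken as the content of deep-layer neurons or interneurons. The tissue label thus fitted the striatal and glutamatergic markers of the 119 and not those of the 11. Among the cortical libraries, 7 had Gad2, an enzyme of GABA synthesis, at 2.37 to 4.27, against 5.14 to 6.52 in the remaining 112. They are decimal replicate 15 and E21DCD replicates 2, 4, 8, 19, 30 and 49, and are called low-Gad2 libraries. Summed counts ran from 15122563 to 55950487 per library with a median of 25789090, the highest correlation between libraries was 0.945, and no pair of columns was identical. In bulk tissue, fewer cells of a type and less RNA per cell cannot be told apart.

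The largest difference among the imprinted genes was between these kinds of library. Dlk1, a membrane protein related to the Notch ligands, and Peg10, a protein derived from a retrotransposon, were higher in every striatal-like library than in any cortical one, and Meg3, the noncoding RNA of the Dlk1 domain, averaged 1.97 times the CPM. Plagl1, a zinc finger transcription factor, and Ndn (necdin), a protein of the MAGE family, were lower. Levels of the other 5 genes differed by less than 0.5. Since the libraries were divided by a measured gene, no test was made, and the values describe these libraries.

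The promoters of the 3 genes that were higher by at least 1 are shown with each CpG dinucleotide in capitals, because CpG methylation is the mark on which imprinting rests. Each is 300 bases of RefSeq sequence (build GRCr8), from 250 bases before to 50 bases after the transcript start used in that table, plus strand: chr6:134192347-134192646 for Dlk1, chr4:33808776-33809075 for Peg10 and chr6:134273806-134274105 for Meg3.
Dlk1: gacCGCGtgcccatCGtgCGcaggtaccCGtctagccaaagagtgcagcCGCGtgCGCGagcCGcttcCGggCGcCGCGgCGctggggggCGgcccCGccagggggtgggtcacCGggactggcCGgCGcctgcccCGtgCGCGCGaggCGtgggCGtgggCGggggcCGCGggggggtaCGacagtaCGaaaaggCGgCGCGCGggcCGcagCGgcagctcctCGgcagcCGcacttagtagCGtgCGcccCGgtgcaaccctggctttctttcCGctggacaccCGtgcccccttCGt
Peg10: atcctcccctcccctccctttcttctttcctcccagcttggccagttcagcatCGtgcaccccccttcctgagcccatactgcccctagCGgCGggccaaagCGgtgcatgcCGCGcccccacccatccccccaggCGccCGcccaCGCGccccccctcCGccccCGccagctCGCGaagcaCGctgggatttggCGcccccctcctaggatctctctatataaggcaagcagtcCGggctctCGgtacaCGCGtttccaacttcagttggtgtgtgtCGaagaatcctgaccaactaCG
Meg3: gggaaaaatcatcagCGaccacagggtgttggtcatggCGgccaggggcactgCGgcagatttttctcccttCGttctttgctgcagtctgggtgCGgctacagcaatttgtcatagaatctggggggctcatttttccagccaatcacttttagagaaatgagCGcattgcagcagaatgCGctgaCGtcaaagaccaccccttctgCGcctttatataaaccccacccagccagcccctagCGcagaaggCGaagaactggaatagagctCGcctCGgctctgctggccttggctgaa
The window of Dlk1 held 45 CpG dinucleotides, that of Peg10 held 22 and that of Meg3 held 13. An entry in the promoter table was found for 9 of the 10 genes, Nnat being the one without, and their counts ran from 11 in Snrpn to 45 in Dlk1, with Grb10 at 44 and Plagl1 at 29. The median over the 9 was 18, the same as over the 14784 promoters of genes tested, whose quartiles were 8 and 27. More CpG dinucleotides than in Dlk1 were found in 2.83% of the promoters of genes tested and in 1.43% of the 33469 promoters of the whole table. The letters TGACGTCA, the cyclic AMP response element, which reads alike on both strands, occurred in 2 of the 9 windows, starting 66 bases before the start of Meg3 and 190 bases before that of Peg3, and in 2.72% of the promoters of genes tested (1.83% of the whole table). The letters TGCCGC, the core bound by the imprint-protecting factor ZFP57 in mouse, were found on one strand or the other in 6 windows (Dlk1, Grb10, Meg3, Peg10, Plagl1 and Snrpn) and in 18.9% of the promoters of genes tested (11.7% of the whole table). TATAAA was found in 1 window, that of Meg3, where 2 overlapping matches, on opposite strands, start 34 and 38 bases before the transcript, and in 7.95% of the promoters of genes tested (14.2% of the whole table). A match describes the sequence and is not a bound site.

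Dlk1 (chromosome 6, GRCr8, 134192491 to 134199779) was at 4.24, 5.07 and 6.04 (lowest, median and highest) in the 11 striatal-like libraries, against 0.34, 1.74 and 2.34 in the 119 cortical libraries. The 2 ranges are far apart, and the lowest striatal-like library lies well above the highest cortical one. The means were 5.12 ± 0.48 in striatal-like and 1.69 ± 0.33 in cortical libraries (SD, n = 11 and 119), a difference of 3.42 on the log2 scale, and the mean CPM was 35.5 in striatal-like and 2.31 in cortical libraries, a ratio of 15.4. A difference this large in either direction was found for 0.429% of genes. In cortical libraries the median Dlk1 count was 60, and the smallest was 4, so cortical Dlk1 was a low and coarsely counted signal.

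Peg10 (chromosome 4, 33809026 to 33822224) was at 7.00, 7.58 and 8.27 in the striatal-like libraries, against 2.32, 4.89 and 5.24 in the cortical libraries. Here too the ranges did not overlap. The means were 7.52 ± 0.37 in striatal-like and 4.85 ± 0.31 in cortical libraries, a difference of 2.68, and the mean CPM was 189 in striatal-like and 28.3 in cortical libraries, a ratio of 6.68. Of all genes, 4.45% were higher in every striatal-like library than in any cortical one, and 2 of the 10 imprinted genes, Dlk1 and Peg10, were among them. Lower in every striatal-like library were 2.86% of genes and 0 of the 10.

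Meg3 (chromosome 6, 134274056 to 134306249) was at 7.74, 8.22 and 8.79 in striatal-like libraries and at 5.51, 7.29 and 8.21 in cortical libraries, so that the ranges overlapped and 6 of the 11 striatal-like libraries lay above every cortical one. The difference of means was 1.03 (8.19 ± 0.32 in striatal-like and 7.16 ± 0.54 in cortical libraries). Differences of 1 or more were found for 4.53% of genes and for 3 of the 10, Dlk1, Peg10 and Meg3, and Meg3 came to 0.96 with the low-Gad2 libraries left out and to 0.97 with median-of-ratios scaling. In the other direction, a difference of -1 or less was found for 5.97% of genes and for 0 of the 10.

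Plagl1 was at 1.25, 1.73 and 2.19 in striatal-like libraries and at 0, 2.49 and 3.71 in cortical libraries, and the means differed by -0.79 (1.70 ± 0.32 in striatal-like and 2.50 ± 0.54 in cortical libraries). Ndn was at 7.40, 7.84 and 7.93 in striatal-like libraries and at 7.34, 8.20 and 8.77 in cortical libraries, a difference of -0.39. For both genes the striatal-like values lay within the cortical range. For Plagl1 this rests on low-Gad2 libraries, since the other 112 cortical libraries began at 1.453. Striatal-like decimal replicates 34 (1.248), 57 (1.435) and 59 (1.281) lay below them. Snrpn, which codes for a core protein of small nuclear ribonucleoproteins, differed by 0.48 (3.91 ± 0.20 in striatal-like and 3.43 ± 0.45 in cortical libraries). Grb10, an adaptor of insulin and growth factor receptors, was higher by 0.20 (6.33 ± 0.16 in striatal-like and 6.13 ± 0.24 in cortical libraries), with 2 of the 11 striatal-like libraries above every cortical one, and Nnat (neuronatin), a small membrane proteolipid, by 0.20 (8.53 ± 0.18 in striatal-like and 8.32 ± 0.39 in cortical libraries). Mest, of the alpha/beta hydrolase fold family, was at 4.88 ± 0.16 in striatal-like and 4.82 ± 0.39 in cortical libraries, and Peg3, a large zinc finger protein, at 8.83 ± 0.11 in striatal-like and 8.81 ± 0.42 in cortical libraries. The differences of these last 2 genes, 0.05 and 0.02, turned to -0.00 and -0.04 with median-of-ratios scaling. The median difference of the 10 genes was 0.20, beside 0.06 for all genes.

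**Figure D1:**
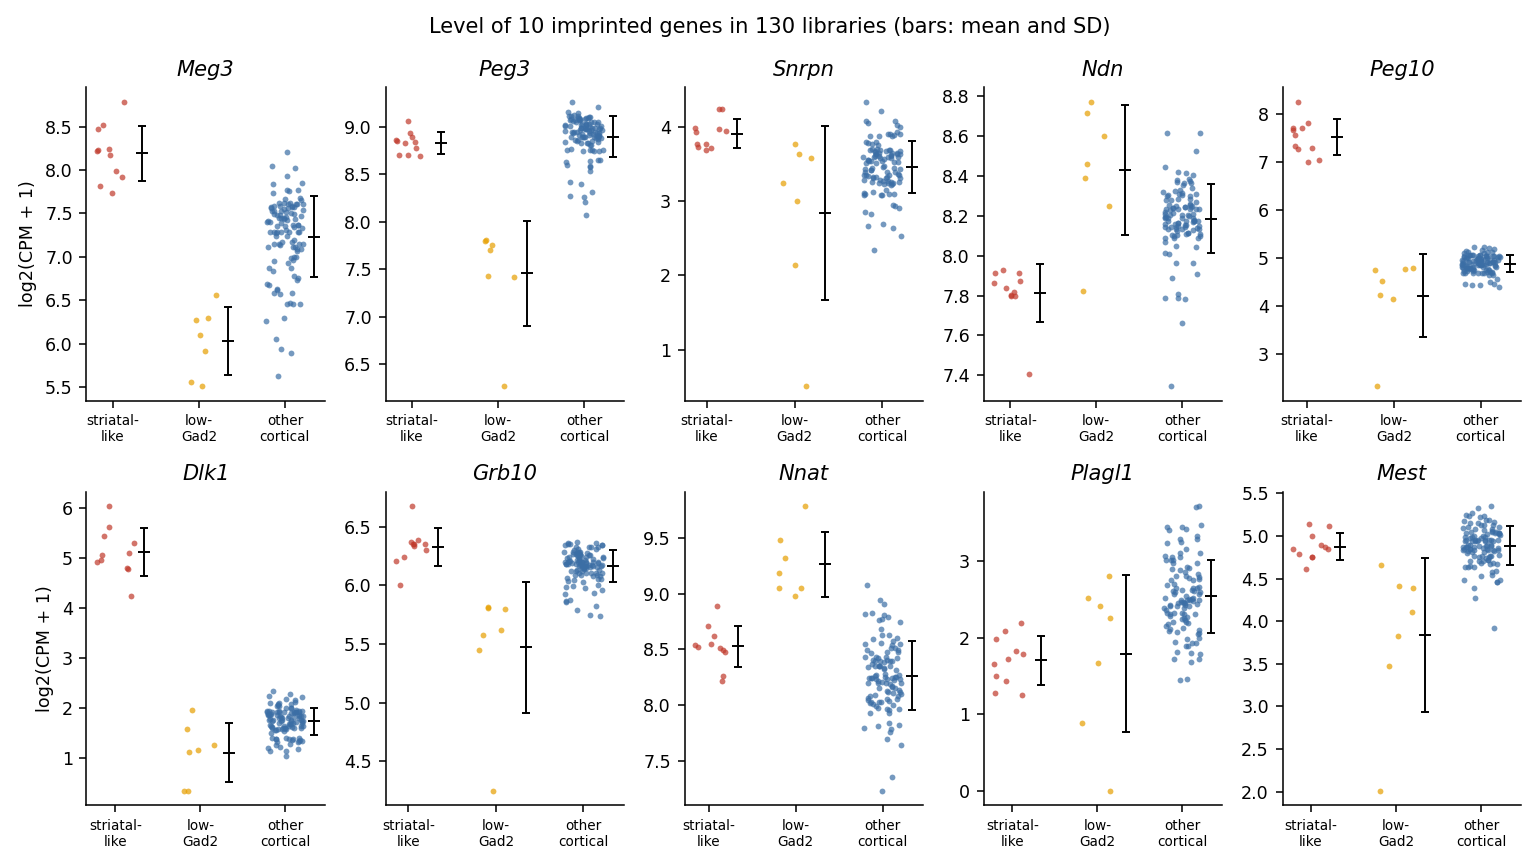
Level of each of the 10 imprinted genes on the log2(CPM + 1) scale (vertical axis, its range set per gene) in the 11 striatal-like, the 7 low-Gad2 and the other 112 cortical libraries; each point is a library and the bars give the mean and SD. Dlk1 and Peg10 separate the striatal-like libraries from all others, and Peg3 separates the low-Gad2 libraries from the other cortical ones.

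The median of the myelin markers was higher in the striatal-like libraries. The summed level of 10 oligodendrocyte markers was 13.63 to 14.60 in them, against 10.19 to 14.43 in the cortical libraries, with 0 of the 10 separated. That of 10 meningeal fibroblast markers was 4.58 to 5.97 in striatal-like and 5.40 to 8.03 in cortical libraries, also with 0 separated. Genes of this group are also known from hypothalamus, so 8 peptide genes of hypothalamic neurons were looked at: their summed level was 3.54 to 3.94 in striatal-like and 1.22 to 3.06 in cortical libraries, and 0 of the 8 reached a mean of 1. Among them, Trh alone was higher in every striatal-like library (median 3.20 in striatal-like and 0.49 in cortical libraries), while Agrp (1.12 in striatal-like and 0.77 in cortical libraries) and Gal (1.11 in striatal-like and 0.70 in cortical libraries) had higher medians with overlapping ranges, and Oxt, Hcrt, Avp, Pmch and Ghrh had medians of 0 to 0.44 in the striatal-like libraries. Within the 11 striatal-like libraries the oligodendrocyte score, a mean of z-scores, correlated with Dlk1 at r = -0.59 and with Peg10 at r = -0.83, so that the levels of both were lower where myelin RNA was higher. The part of these other cell types in the differences between striatal-like and cortical libraries was not tested. In the decimal series alone, which holds all 11 striatal-like libraries and 57 cortical ones, the differences were 3.51 for Dlk1, 2.72 for Peg10 and 1.09 for Meg3. The 57 include the cortical libraries among decimal replicates 1 to 21, whose Meg3 values were only 5.63 to 7.17.

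A list of 45 further imprinted genes gave the context. Of these, 38 had a row and 28 reached a mean level of 1, and 2 of the 28 were higher in every striatal-like library, Inpp5f (6.83 ± 0.18 in striatal-like and 5.42 ± 0.24 in cortical libraries, a difference of 1.42) and Ppp1r9a (9.13 ± 0.21 in striatal-like and 8.04 ± 0.33 in cortical libraries, a difference of 1.09). Together with Kcnk9 they are named because of their values. Inpp5f codes for an inositol phosphatase, and Ppp1r9a, for neurabin, an actin-binding protein of synapses, lies 115 kb from Peg10. Lower in striatal-like libraries by more than 1 were Igf2, a growth factor made by meninges and vessels (4.16 ± 0.52 in striatal-like and 5.82 ± 0.68 in cortical libraries), and Kcnk9, a potassium channel (3.55 ± 0.49 in striatal-like and 4.97 ± 0.46 in cortical libraries). Igf2 was lower where the meningeal markers given above were lower as well. Gnas, the stimulatory G protein subunit, was at 9.79 ± 0.17 in striatal-like and 10.70 ± 0.17 in cortical libraries, and Nap1l5 at 7.10 ± 0.20 in striatal-like and 7.53 ± 0.18 in cortical libraries. Zdbf2 was higher by 0.58, Usp29 by 0.47, Sgce by 0.45, Ube3a by 0.13 and Blcap by 0.08. Impact differed by -0.22, Cdkn1c by -0.05 and Magel2 by -0.04. Zim1 had a mean of 0.92 in striatal-like and 0.78 in cortical libraries, and H19 one of 0.02 in striatal-like and 0.25 in cortical libraries. Rian was not analysed here. The median difference over the 28 was -0.03. A second list held 18 genes that set or keep imprints, of which 16 were tested, and 0 of these were higher or lower in every striatal-like library. The largest difference among them was that of Zfp57 (0.81), which protects imprints in mouse embryos, with 9 of the 11 striatal-like libraries above every cortical one.

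**Figure D2:**
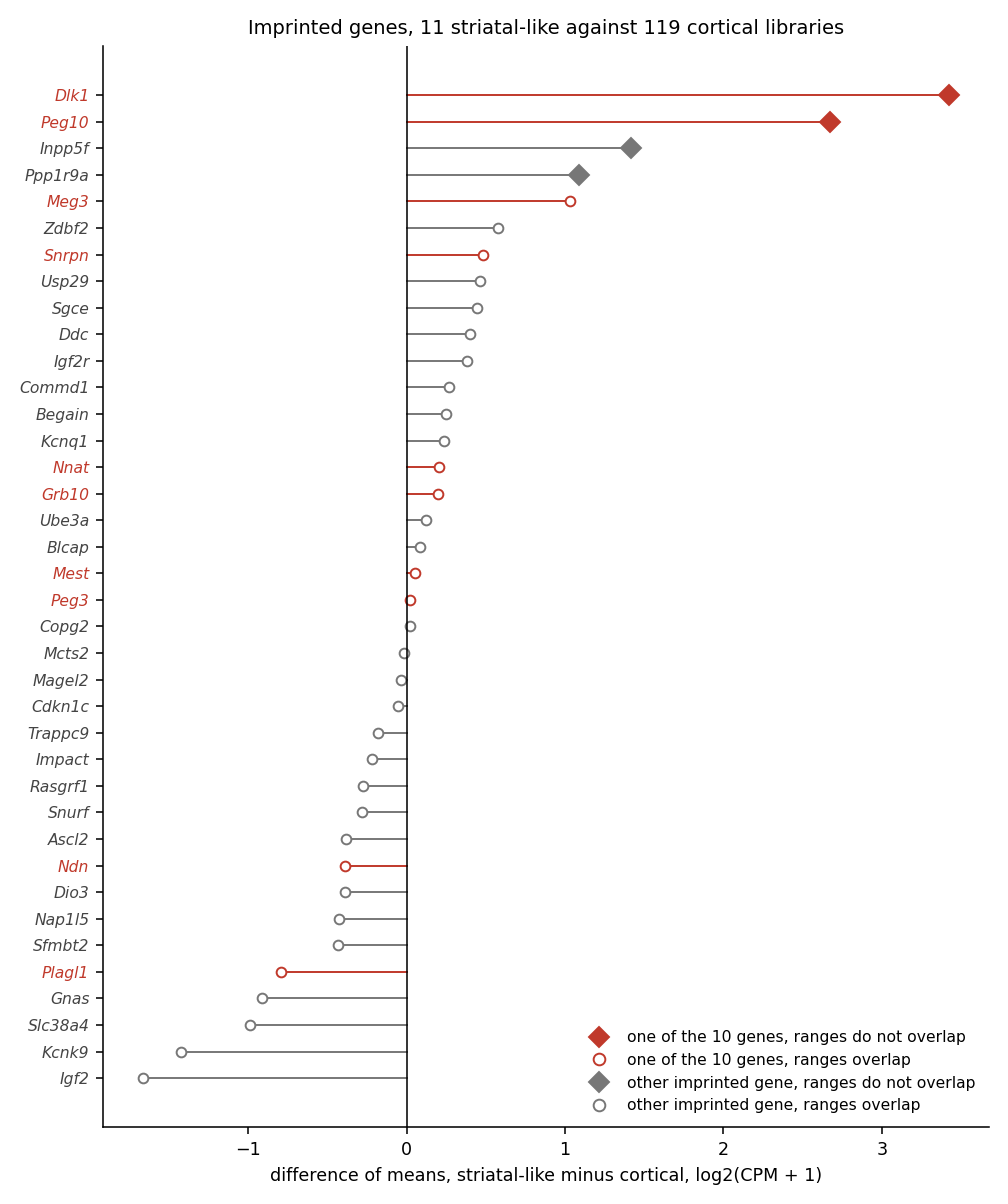
Difference of mean level, 11 striatal-like minus 119 cortical libraries, on the log2(CPM + 1) scale (horizontal axis) for the 10 imprinted genes (red) and 28 other imprinted genes (grey). Filled diamonds mark genes whose ranges do not overlap: Dlk1 at 3.42, Peg10 at 2.68, Inpp5f at 1.42 and Ppp1r9a at 1.09.

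Within the cortex, the 7 low-Gad2 libraries had lower levels of most of the imprinted genes. Peg3 (chromosome 1, 76130965 to 76157774) was at 6.26, 7.71 and 7.81 in the 7 low-Gad2 libraries, against 8.08, 8.95 and 9.27 in the other 112 cortical libraries. The ranges did not overlap, and the means were 7.46 ± 0.55 in low-Gad2 and 8.90 ± 0.21 in other cortical libraries (SD, n = 7 and 112), a difference of -1.44. Meg3 was at 5.51, 6.10 and 6.56 in low-Gad2 libraries and at 5.63, 7.35 and 8.21 in the others, a difference of -1.20, with 2 of the 7 below all others. Mest was at 2.01, 4.11 and 4.66 in low-Gad2 libraries and at 3.92, 4.89 and 5.35 in the others, a difference of -1.05, with 3 of the 7 below all others. The remaining lower genes were Plagl1 (-0.75), Grb10 (-0.69), Peg10 (-0.67), Dlk1 (-0.62) and Snrpn (-0.62), each with an overlap between the sets.

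Nnat and Ndn went the other way. Nnat (chromosome 3, 166646373 to 166648845) was at 8.98, 9.18 and 9.79 in low-Gad2 libraries and at 7.23, 8.25 and 9.08 in the others, a difference of 1.00, and 4 of the 7 lay above all others. With median-of-ratios scaling all 7 did, as for 3.65% of all genes, and the difference was 1.20. Ndn was at 8.43 ± 0.32 in low-Gad2 and 8.19 ± 0.17 in other cortical libraries, a difference of 0.24. Of all genes, 6.26% were lower in every low-Gad2 library and 1.59% higher in every one, beside 1 (Peg3) and 0 of the 10. Peg3 was the 1 that was lower in every one with median-of-ratios scaling too (-1.24, where 4.14% of genes were). A difference of -1 or less was found for 6.77% of genes and for 3 of the 10, Peg3, Meg3 and Mest, and one of 1 or more for 1.78% of genes. The median difference was -0.68 for the 10 genes and -0.20 for all genes, and median-of-ratios scaling raised the median gene of the low-Gad2 libraries by 0.18 on average.

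Decimal replicate 15 had the lowest cortical value of 6 of the 10 genes. Its most abundant gene took 15.1% of the counts, where the median over low-Gad2 libraries was 0.870% and the range in the other 112 was 0.373% to 1.08%. It held that value for Peg3 (6.26), Grb10 (4.25), Peg10 (2.32), Mest (2.01), Snrpn (0.51) and Plagl1 (0 counts). Without it, the 6 low-Gad2 libraries differed from the other 112 cortical libraries by -1.25 in Peg3, with all 6 still below every other library, by -1.21 in Meg3, -0.74 in Mest and 1.03 in Nnat. The smaller differences shrank, Plagl1 to -0.45, Grb10 to -0.49, Dlk1 to -0.50, Peg10 to -0.35 and Snrpn to -0.23. Other imprinted genes lower in every low-Gad2 library were Kcnk9 (-1.61), Igf2r (-1.43) and Ppp1r9a (-1.16), 3 of the 28, and Mcts2 was the 1 that was higher in every one (0.71). Of the 16 imprint regulators, 7 were lower in every low-Gad2 library, among them Tet2 (-1.20), Dnmt3a (-0.88), Dnmt1 (-0.86) and Ctcf (-0.68), and 4 of the 16 were with median-of-ratios scaling. These genes too are named because of their values. Several marker lists had a higher median in the low-Gad2 libraries, with overlapping ranges, and 4 of them are described below. Others were the glutamatergic (12.98 against 12.82 in other cortical libraries) and hypothalamic lists (2.80 against 1.85). Lower medians were found for, among others, the astrocyte (12.49 against 12.70) and meningeal fibroblast lists (6.75 against 6.96). The summed level of 5 blood markers was 7.81 to 9.53 (median 9.21) in low-Gad2 and 6.27 to 10.25 (7.73) in other cortical libraries. That of 10 microglial markers was 8.37 to 8.98 (8.75) in low-Gad2 and 7.91 to 9.02 (8.28) in other cortical libraries. That of 10 interneuron markers was 10.34 to 11.19 (10.90) in low-Gad2 and 9.88 to 10.70 (10.37) in other cortical libraries, higher although Gad2 itself was low. A sum weighs its most abundant markers most, so it is not a measure of interneuron number. The oligodendrocyte markers had a summed level of 11.62 to 13.71 (12.68) in low-Gad2 and 10.19 to 14.43 (11.81) in other cortical libraries. In these 4 lists 0 genes were higher in every low-Gad2 library and 1, Gad2 itself, by which the libraries were divided, was lower in every one, and the part of cell content and RNA composition in these differences was not tested.

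The comparison the labels allow is between the identifier series, over cortical libraries (57 decimal and 51 E21DCD). With limma's moderated test across all 15150 genes, 0 of the 10 imprinted genes passed an adjusted p of 0.05, while 8.77% of all genes did (801 higher and 527 lower in the decimal series). At an unadjusted p under 0.05, 3 of the 10 passed, all with lower values in the decimal series, and 23% of all genes did. Ndn was at 8.15 ± 0.20 in decimal and 8.25 ± 0.18 in E21DCD libraries (SD, n = 57 and 51), a difference of -0.10 ± 0.04 (SE, limma adjusted p = 0.0606). Dlk1 was at 1.61 ± 0.32 in decimal and 1.77 ± 0.34 in E21DCD libraries, a difference of -0.16 ± 0.06 (limma adjusted p = 0.0983), and Nnat at 8.24 ± 0.37 in decimal and 8.41 ± 0.41 in E21DCD libraries, a difference of -0.17 ± 0.07 (limma adjusted p = 0.128). The other 7 had differences between -0.13 and 0.03, with limma adjusted p of 0.478 or more.

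The low-Gad2 libraries, 1 decimal and 6 E21DCD, bore on this result. Without them (56 decimal against 45 E21DCD), 4 of the 10 were lower in the decimal series, in a fit where 34.2% of all genes were called and 15% were lower. Dlk1 differed by -0.21 ± 0.05 (SE, limma adjusted p = 0.00095), Grb10 by -0.09 ± 0.03 (0.00714), Meg3 by -0.24 ± 0.09 (0.0307) and Ndn by -0.09 ± 0.03 (0.0412). With median-of-ratios scaling as well, 4 of the 10 again passed, among 35.2% of all genes. Those of the 56 decimal libraries among replicates 1 to 21 had Meg3 at only 5.63 to 7.17. The part of this run of libraries in the Meg3 difference between the series was not tested. With decimal replicate 15 alone left out, Ndn passed (-0.11, limma adjusted p = 0.0297), and 14.9% of all genes did. With all 68 decimal libraries, the 11 striatal-like ones included, Ndn passed (-0.16, limma adjusted p = 0.00152), while Dlk1 (0.41) and Peg10 (0.36) changed sign without passing. In that fit 27.6% of all genes were called. Nnat passed with the oligodendrocyte score as covariate (-0.25, limma adjusted p = 0.0334), where 6.06% of genes did, and Ndn passed with the reassigned libraries counted with the E21DCD series (-0.10, limma adjusted p = 0.033), where 10.3% did.

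Of the 28 other imprinted genes tested, 3 passed between the series in the cortical libraries, beside the 8.77% of all genes given above, and all 3 were lower in the decimal series, as were 3.48% of all genes. With the low-Gad2 libraries left out, 3 of the 28 were higher and 8 lower in the decimal series, where 19.2% of all genes were higher and 15% lower. Dio3, the thyroid hormone inactivating deiodinase that lies in the Dlk1 domain, was at 1.94 ± 0.71 in decimal and 2.44 ± 0.49 in E21DCD libraries (difference -0.50, limma adjusted p = 0.00315). Igf2 was at 5.64 ± 0.65 in decimal and 6.04 ± 0.67 in E21DCD libraries (difference -0.40, limma adjusted p = 0.0308). Trappc9, a vesicle trafficking subunit, was at 6.35 ± 0.18 in decimal and 6.48 ± 0.11 in E21DCD libraries (difference -0.13, limma adjusted p = 0.00204). Dio3 missed the threshold with the oligodendrocyte score as covariate (limma adjusted p = 0.0872), and Igf2 with that covariate (0.13), with the log2 summed count as covariate (0.0838) or with no filter on low values (0.069).

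The 11 reassigned libraries were compared with the 51 E21DCD libraries in the same way. No gene of the 15150 passed (0%), 634 had an unadjusted p under 0.05, and the smallest limma adjusted p of the 10 imprinted genes was 0.912. Their differences ran from -0.05 in Nnat to 0.20 in Peg3. For Peg3 the 95% interval was -0.08 to 0.47, and for Plagl1, the widest, it was -0.25 to 0.44. The smallest limma adjusted p of any gene was 0.868. The 51 E21DCD libraries include 6 low-Gad2 ones, with Peg3 at 7.42 to 7.81, and the 11 reassigned libraries include 0. The part of this imbalance in the Peg3 difference and its interval was not tested. With the low-Gad2 libraries left out (11 against 45), 0 genes passed, and the smallest limma adjusted p was 0.198.

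Spread between libraries was set against genes of the same mean, as the SD over cortical libraries divided by a smooth trend of the SD on the mean. Meg3 varied most for its level, with an SD of 0.54 that was 2.42 times the trend and larger than that of 97.4% of the 500 genes nearest in mean. It was the only one of the 10 at 2 times the trend or more, where 4.62% of all genes were. Plagl1 followed at 1.97, Peg3 at 1.90, Snrpn at 1.80, Nnat at 1.75 and Mest at 1.72. Peg10 (1.35), Dlk1 (1.16), Grb10 (1.10) and Ndn (0.86) were closer to the trend. A ratio above 1 was found for 9 of the 10, and the median ratio of all genes was 0.99.

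Which genes vary depended on the low-Gad2 libraries. Over the other 112 cortical libraries, Meg3 was at 3.28 times the trend and above 99.2% of its 500 neighbours, Nnat at 2.17 and Plagl1 at 2.06, and 5.03% of all genes reached 2. Peg3 came to 1.51 and Grb10 to 0.93. Meg3 still spanned 5.63 to 8.21 in these 112 libraries, or 48.5 to 295 CPM, with a lowest count of 1288. Those of the 112 among decimal replicates 1 to 21 stayed at 5.63 to 7.17, a run seen in the values. The SD pools the series and such runs, and the parts of rat, dissection and handling in it were not tested. Plagl1 spanned 1.45 to 3.71 with counts of 29 to 446, so that counting error weighs more in its spread. Over all 130 libraries Peg10 (3.35), Dlk1 (3.22) and Meg3 (2.42) passed 2 times the trend, where 7.54% of genes did. With median-of-ratios scaling Meg3 (2.54) and Nnat (2.06) did in the 119, among 5.35% of genes, and 3 of the 10 in the 112, among 5.14%.

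**Figure D3:**
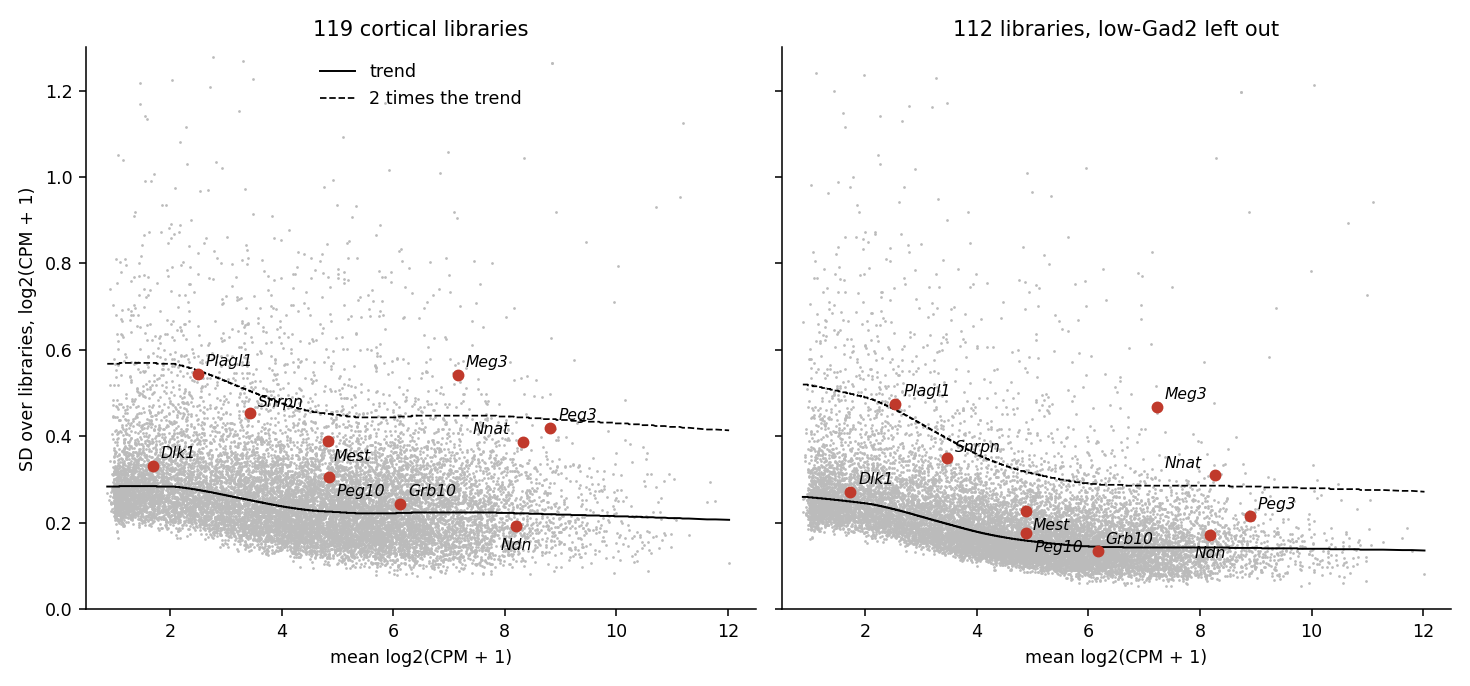
SD over libraries against mean level, both on the log2(CPM + 1) scale, for all genes tested (grey) and the 10 imprinted genes (red), in 119 cortical libraries and in 112 with the low-Gad2 libraries left out; the solid line is the trend and the dashed line 2 times the trend, and a few genes of larger SD lie above the axis. Meg3 is above the dashed line in both panels, and Nnat and Plagl1 pass it in the second.

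The 45 pairs of the 10 genes were then correlated over libraries. Across the 119 cortical libraries the median Pearson r was 0.38 and 16 pairs reached 0.5, beside a median of 0.09 and a share of 12.4% over all pairs of genes tested. Peg3, Grb10, Peg10 and Mest varied together from library to library. The highest r was that of Peg3 with Grb10, at 0.87 with rho = 0.66 (permutation p = 1e-05 for each, the smallest that 100000 permutations can give). It was 0.80 without the 2 libraries farthest from the median of Peg3, 0.90 in the decimal series, 0.93 in the E21DCD series and 0.46 in the 11 reassigned libraries. The limma adjusted p over all genes was 1.81e-37, and 78.8% of genes passed against Peg3. Next were Grb10 with Mest (r = 0.83, rho = 0.47), Peg10 with Grb10 (r = 0.79, rho = 0.43) and Peg3 with Peg10 (r = 0.79, rho = 0.60), each with a permutation p of 1e-05 for both and a limma adjusted p of 8.63e-26 or less, where 77.6% of genes passed against Grb10 and 75.1% against Peg10. Without the 2 farthest libraries they were 0.64, 0.49 and 0.63. The lowest was Peg3 with Nnat, at r = -0.61 and rho = -0.40 (permutation p = 1e-05 for each, limma adjusted p = 1.78e-13).

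Most of these relations rested on few libraries. Without decimal replicate 15, 8 pairs reached 0.5 and the mean r was 0.18, against a mean of 0.26 over the 119. The share over all pairs of genes was not taken for that set. Without all 7 low-Gad2 libraries, 2 pairs reached 0.5 and the median r was 0.16, beside 3.45% and 0.02 for all pairs of genes. They were Peg3 with Grb10 (r = 0.66, rho = 0.59, n = 112) and Peg3 with Peg10 (r = 0.63, rho = 0.55), both with a permutation p of 1e-05, and both held in each series (0.66 and 0.60 in the 56 decimal libraries, 0.70 and 0.67 in the 45 E21DCD libraries) and without the 2 farthest libraries (0.63 and 0.56). Their limma adjusted p was 1.98e-14 and 5.50e-13, and 65.3% of genes passed against Peg3. Grb10 with Mest came to r = 0.49 over the 112, with 0.64 in the decimal series and -0.02 in the E21DCD series, so that relation did not hold in both. Neither did Peg3 with Mest (0.37 over the 112, 0.58 in the decimal and -0.07 in the E21DCD series). Peg10 with Mest came to 0.16 (0.26 in the decimal and -0.03 in the E21DCD series). Ndn with Nnat was little changed (r = 0.50 over 119 and 0.48 over 112, rho = 0.52 and 0.49, permutation p = 1e-05 for each, 0.49 in the decimal and 0.38 in the E21DCD series, limma adjusted p = 3.52e-07 over the 112, where 50.9% of genes passed against Ndn). The 45 pairs as a whole differed between the series. Over the 56 decimal libraries their mean r was 0.22 and 36 were positive. Over the 45 E21DCD libraries the mean r was 0.01, 22 pairs were positive and 3 were at -0.5 or less. The lowest there was Peg3 with Ndn, at -0.72, against 0.30 in the decimal series. Over all pairs of genes tested, the median r was 0.02 in the decimal and 0.01 in the E21DCD libraries. An r of 0.5 or more in size was found for 9.77% and 6.95% of all pairs. Whether the 45 pairs differ between the series more than other pairs was not tested. With the first 5 principal components of all genes regressed out, 0 of the 45 pairs reached 0.5, beside 0.336% of all pairs, and the mean r was 0.05.

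In the 11 striatal-like libraries the highest values were among Dlk1, Peg10 and Grb10. Dlk1 with Grb10 had r = 0.91 and rho = 0.82 (permutation p = 0.00047 and 0.00345, limma adjusted p = 0.0351, where 0.238% of genes passed against Dlk1). Peg10 with Dlk1 had r = 0.84 and rho = 0.79 (permutation p = 0.00156 and 0.00548, limma adjusted p = 0.0206, where 3.44% of genes passed against Peg10). Without the 2 libraries farthest from the median of the first-named gene, the values were 0.64 and 0.75, and decimal replicate 64 was the highest striatal-like library in Dlk1, Peg10 and Grb10 alike. In the 112 cortical libraries, Dlk1 with Grb10 was at 0.47 and Peg10 with Dlk1 at 0.23, and whether the relations differ between striatal-like and cortical libraries was not tested. The relation of Meg3 with Dlk1, the gene of its own domain 74.3 kb away, did not pass in the striatal-like libraries (r = 0.32, rho = 0.29, permutation p = 0.335 and 0.386, limma adjusted p = 0.549, where 3.03% of genes passed against Meg3), and in the 112 cortical ones r was 0.27 (rho = 0.22, permutation p = 0.00319 and 0.0232, limma adjusted p = 0.0108, where 41.8% did).

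**Figure D4:**
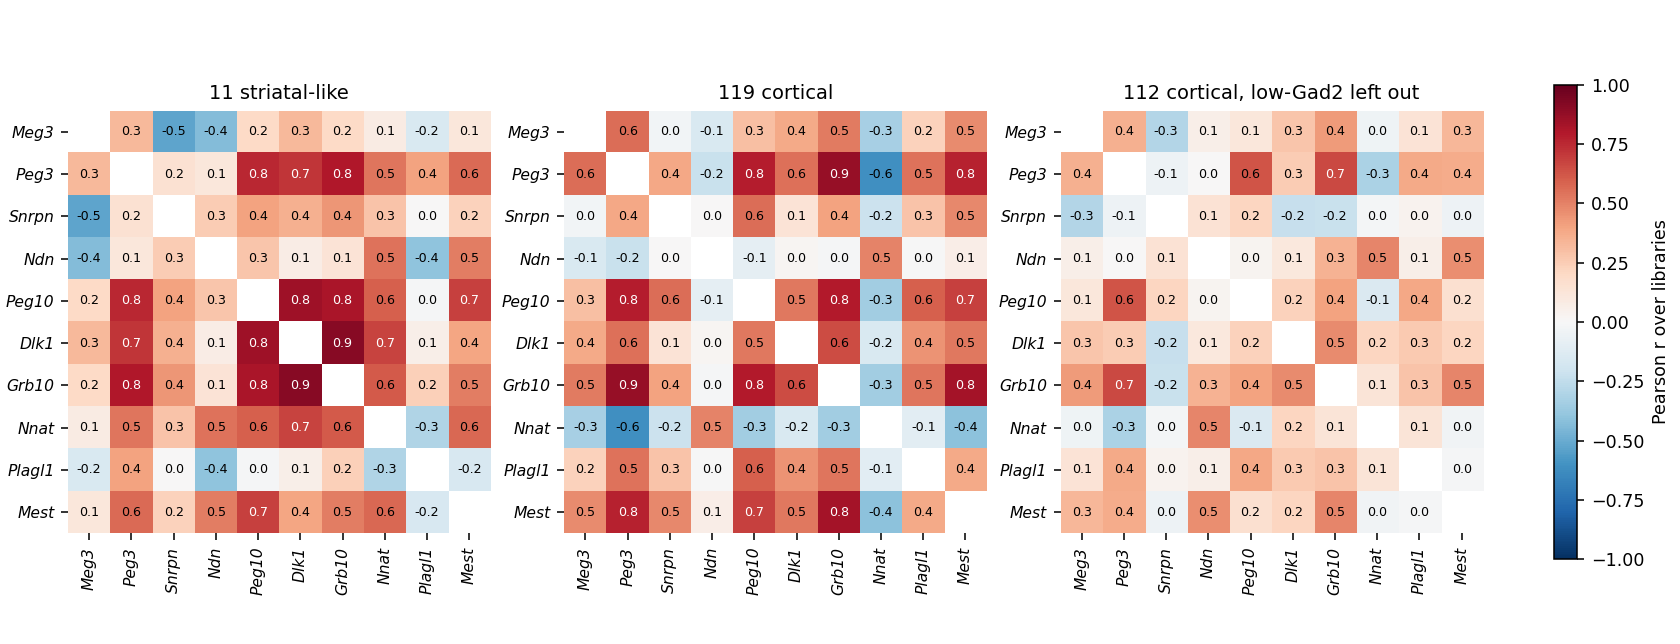
Pearson r of each pair of the 10 imprinted genes (both axes list the genes) over 11 striatal-like, 119 cortical and 112 cortical libraries with the low-Gad2 ones left out; red is positive and blue negative. In the block of high values of Peg3, Peg10, Grb10 and Mest over the 119, the pairs at 0.5 or more over the 112 are Peg3 with Grb10 (0.66) and with Peg10 (0.63). Lower over the 112 are Grb10 with Mest (0.49), Peg10 with Grb10 (0.41), Peg3 with Mest (0.37) and Peg10 with Mest (0.16).

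**Figure D5:**
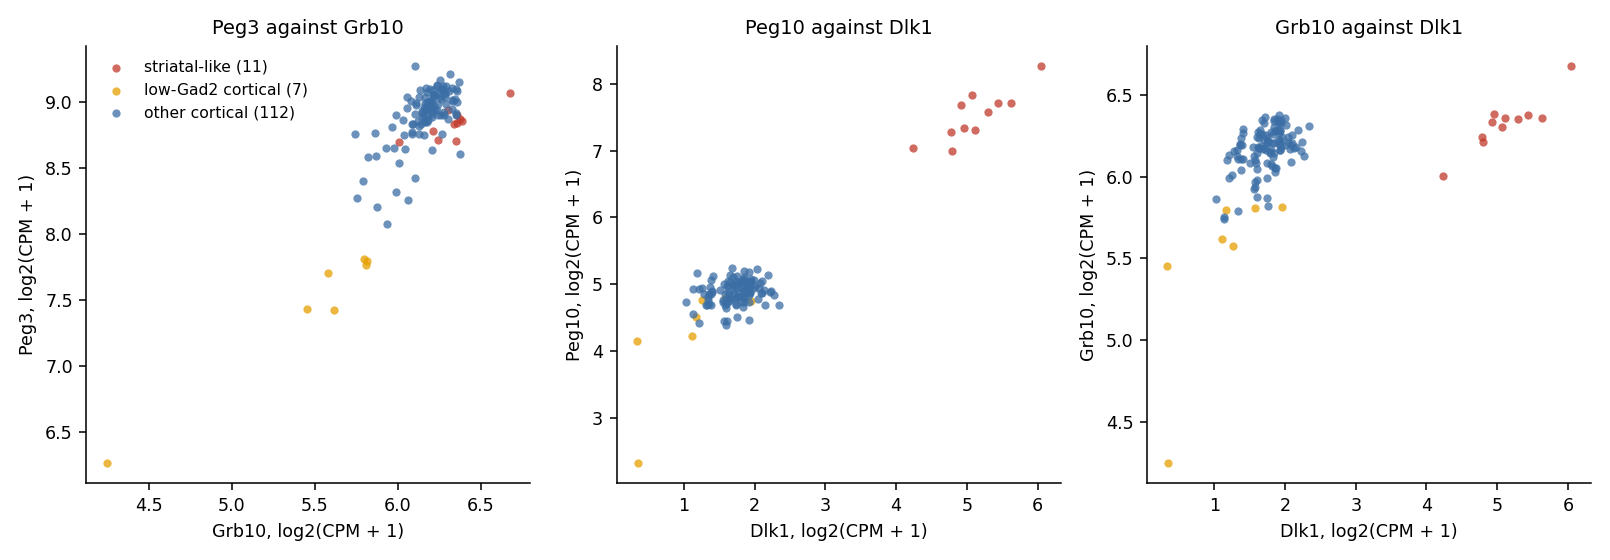
Levels of 3 pairs of imprinted genes on the log2(CPM + 1) scale, each point a library, coloured as striatal-like (11), low-Gad2 (7) or other cortical (112). The low-Gad2 libraries extend the relation of Peg3 with Grb10 downwards, and the striatal-like libraries lie apart along Dlk1.

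Imprinted genes lie in clusters, and 16 pairs joined one of the 10 to a nearby gene of the imprinted lists. These values are descriptions, without a test. Over the 119 cortical libraries 5 of the 16 reached r = 0.5 and 6 were below 0, over the 112 it was 3 and 5, and the median r was 0.22 and 0.27. Over all pairs of genes tested, 12.4% reached 0.5 over the 119 and 3.45% over the 112, with a median r of 0.09 and 0.02. Peg3 and Usp29, a deubiquitinase gene 171 kb away, had r = 0.92 over 119 and 0.80 over 112 cortical libraries (rho = 0.79 and 0.74), and 0.85 and 0.75 within the decimal and E21DCD series. Peg10 and Ppp1r9a had r = 0.78 and 0.66 in the same sets and 0.82 in the 11 striatal-like libraries (rho = 0.78). Peg10 and Sgce, which codes for epsilon-sarcoglycan and lies head to head with Peg10, 119 bases apart, had r = 0.49 over 119 but -0.19 over 112 libraries. Mest and Copg2, a coat protein gene 1.17 kb away, had 0.82 and 0.58, with 0.64 in the decimal and 0.26 in the E21DCD series. Meg3 and Rtl1, a retrotransposon-derived gene 19.0 kb away, had r = 0.94 and rho = 0.90 in the striatal-like libraries, 0.12 over the 119 and 0.36 over the 112. Rtl1 was at 1.42 to 2.75 in striatal-like libraries and 0.26 to 1.49 in cortical ones. In mouse an RNA antisense to Rtl1 is read from the same maternal copy as Meg3, and whether the counting used strand is not given in the sources used here, so reads of the sense and antisense RNA cannot be told apart. Ndn and Magel2, 29.4 kb apart, had r = 0.39 over the 112, with 0.56 in the decimal series and -0.21 in the E21DCD series. The pairs below 0 over the 119 were Dlk1 with Begain (-0.25), Ndn with Mkrn3 (-0.22), Grb10 with Ddc (-0.13, and -0.36 over the 112), Dlk1 with Rtl1 (-0.08), Ndn with Peg12 (-0.07) and Mest with Klf14 (-0.06).

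Several genes overlap others in the annotation, and the counting could split their reads. Nnat lies inside Blcap, with r = 0.53 over 119 and 0.37 over 112 cortical libraries. Snrpn shares its locus with Snurf, and Snrpn was credited with 0.0679% to 3.26% of their summed counts, with a median of 1.24%. The level of Snrpn is therefore uncertain, and Snurf, at 9.47 ± 0.17 in striatal-like and 9.75 ± 0.23 in cortical libraries, differed in the opposite direction from Snrpn. Peg3 overlaps Apeg3, Meg3 overlaps the microRNA gene Mir770, and Plagl1 overlaps an uncharacterised locus.

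The genes most like each of the 10 over the 119 cortical libraries were taken as the 3 highest r among 10829 named genes with a mean of at least 3. They are descriptions, and all share the libraries and their composition. For Meg3 they were Ankrd10 (r = 0.90), the noncoding RNA Miat (0.88) and Trank1 (0.875), and over the 112 libraries the noncoding RNA Snhg11 (0.91), Leng8 (0.89) and Ankrd10 (0.89). For Peg3 they were Myh10 (0.975), Mrtfb (0.970) and Bod1l1 (0.970). For Grb10 they were Marchf6, Mgat4a and Adgrb3 (0.94 each), for Mest Dnajc5 (0.92), Slc35e1 (0.91) and Usp12 (0.90), and for Peg10 Tbl1xr1, Ttbk2 and Trim2 (0.88 to 0.89). Nnat was most like Mapk3 (0.85), Cotl1 (0.79) and Adissp (0.77), and Mapk3, a kinase of growth factor signalling, was also its nearest over the 112 libraries (0.80). Ndn was most like Acot7 (0.88), P4htm (0.84) and Crym (0.82). Dlk1 had Kit, Smarca2 and Npr3, Plagl1 had Cbll1, Dpysl2 and Cntn1, and Snrpn had Ipcef1, Ncald and Nefl, all between 0.68 and 0.70. Over the 112 libraries Acot7 was again among the 3 for Ndn (0.855), Dnajc5 for Mest (0.76) and Cntn1 for Plagl1 (0.57), while those of Peg3, Snrpn, Peg10, Dlk1 and Grb10 were all different ones.

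Cell content and RNA composition moved with several of the genes, and their part in the correlations was not tested. Over the 119 cortical libraries the share of counts in the most abundant gene correlated at -0.84 with Mest, -0.83 with Grb10 and -0.81 with Peg3, and over the 112 at -0.50, -0.46 and -0.55. Over those 112 the microglial score correlated at -0.72 with Peg3 and -0.60 with Grb10, the oligodendrocyte score at -0.65 with Grb10 and -0.53 with Mest, and the astrocyte score at -0.63 with Mest and -0.62 with Ndn. Ndn followed the interneuron score (0.54). Meg3 had no value beyond 0.35 in size with any list over the 112, where the layer 5 and 6 score had -0.35, and Nnat none beyond 0.25. The log2 summed count correlated between -0.28 (Meg3) and 0.12 (Peg10) with the 10 genes.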

How the data were processed

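RNA of 130 prelimbic cortex libraries was analysed, of 164 samples in the labels; the other 34 had no column in the table and were not analysed here. The deposited values are log2 of an estimated count plus 1, per the file's values: 61.5% of low values came within 0.01 of a whole number when converted back, and columns sum to different totals. kallisto 0.48 is named per the submitters' processing notes; the other steps, the annotation and the use of strand are not given in the sources used here. Gene positions matched GRCr8 for 38278 of 38278 genes compared. Since the unit is log2 and no count table was used, no count model was fitted.

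Values were converted to counts, scaled to 1000000 per library and given as log2(CPM + 1); genes with a mean of at least 1 were tested. Summed counts were 15122563 to 55950487 per library, and precision is limited by the number of libraries and, for low genes, by counting error. Median-of-ratios factors ran from 0.523 to 2.12 and moved a library's median gene by -0.10 to 0.84.

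Groups came from the identifiers in the titles. Series were compared with limma 3.58.1 (R 4.3.3; trend, moderated test, two-sided, Benjamini-Hochberg over all genes tested). Libraries divided by Drd2 (limit 6) or Gad2 (limit 5) are described without a test. Correlations have two-sided permutation p-values (100000 permutations; numpy 2.4.6, scipy 1.17.1), and a limma fit on each gene as covariate gave adjusted p-values. The SD trend was a lowess (fraction 0.3; statsmodels 0.14.6). Cell type scores are means of z-scores. The limma step was tested on simulated data.

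All 10 genes are named, with the 3 genes most like each, the other imprinted genes past the threshold between series and 14 imprinted genes fixed by name; further genes are said to be named because of their values. The members, lists and tests were chosen with earlier results of these data known. Alternatives were median-of-ratios scaling, filters, pseudocount 0.1, library sets, covariates, a lowess fraction of 0.1 and removal of 5 principal components; leaving out decimal replicate 15, doubled settings and summing Snrpn with Snurf were chosen after seeing the data.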

Additional observations from a re-analysis of the deposited data

How the results depend on the processing

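Of 324 alternative values, 257 stayed the same, 12 newly passed, 4 no longer passed, 30 moved further and 21 changed sign. For a limma difference, the same meant its direction and side of the threshold. For a count it meant a ratio to the main count within a fixed limit, and for a difference of means a shift below an SD over libraries. For a spread ratio or mean r it meant a shift below the SD over the 10 genes or the 45 pairs. Sign changes were counted in limma fits alone, so those of Mest and Peg3 in striatal-like against cortical libraries are not among the 21. The 2 imprinted genes separated between striatal-like and cortical libraries, Dlk1 and Peg10, were separated in each of the alternatives run, and Dlk1 differed by 3.88 with pseudocount 0.1.

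Between the decimal and E21DCD series, where 0 of the 10 genes and 1328 of all genes passed, 4 of the 10 and 5177 of all passed with the low-Gad2 libraries left out, and 4 and 5329 with median-of-ratios scaling as well. All libraries gave 1 and 4183, decimal replicate 15 left out 1 and 2263, reassigned libraries counted with the E21DCD series 1, the oligodendrocyte covariate 1, and no filter on low values 850 of all genes. The cause was not tested. Differences that changed sign were small except with all libraries, where the striatal-like libraries enter: Dlk1 0.41, Peg10 0.36, Meg3 0.0739 and Snrpn 0.069. The oligodendrocyte covariate gave Meg3 0.0477, Grb10 0.0164 and Mest 0.0622. The low-Gad2 libraries left out gave Peg3 -0.0792 and Snrpn 0.0157 (-0.0861 and 0.0097 with median-of-ratios scaling as well), decimal replicate 15 left out gave Snrpn 0.0424 and Mest 0.0027, and reassigned libraries counted with the E21DCD series gave Peg3 -0.0088. Between reassigned and E21DCD libraries, median-of-ratios scaling gave Ndn -0.0187 and Dlk1 -0.0071, and the low-Gad2 libraries left out gave Meg3 -0.0454, Peg10 -0.0236, Dlk1 -0.0649, Grb10 -0.0181 and Nnat 0.0676.

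Genes at 2 times the SD trend or more numbered 1 of 10, against 3 over all libraries, 3 with the low-Gad2 libraries left out, 2 with median-of-ratios scaling and 3 with both. Pairs with r of 0.5 or more numbered 16 of 45, against 8 without decimal replicate 15, 2 without the low-Gad2 libraries, 2 with median-of-ratios scaling as well, 6 and 3 within the decimal and E21DCD series without them, and 0 with 5 principal components removed. Over all pairs of genes tested the shares were 12.4% in the main setting and 3.45% without the low-Gad2 libraries. They were 3.17% with median-of-ratios scaling as well, 5.69% and 3.72% within the series, and 0.336% with the components removed. No paired analysis was possible because replicate numbers only name the libraries. Depth limits Dlk1 and Plagl1 in cortex, at medians of 60 and 127 counts.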

Other observations

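Some imprinted genes of the list were too low to be tested but differed between the kinds of library, and they were singled out after their values were seen. Calcr, the calcitonin receptor gene, had levels of 3.54, 4.78 and 5.91 (lowest, median and highest) in the 11 striatal-like libraries, against 0, 0.11 and 0.57 in the 119 cortical libraries. The ranges were far apart, and the mean CPM was 29.2 ± 14.8 in striatal-like and 0.0995 in cortical libraries, a ratio of 294. Rtl1 was at 2.10 ± 0.41 in striatal-like and 0.80 ± 0.24 in cortical libraries, and the ranges overlapped between 1.42 and 1.49. Klf14 averaged 0.25 in striatal-like and 0.01 in cortical libraries.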
